A study of Mus musculus with 6 samples.

Results

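Arterial and venous endothelial cells line the opposite ends of the vascular bed and carry different sets of transcripts. The genes described here are 7 markers of arterial endothelium (Sox17, Gja4, Gja5, Dll4, Hey1, Efnb2 and Bmx) and 3 of venous endothelium (Nr2f2, Ephb4 and Vwf). They were taken by symbol, with no threshold on their values but with earlier results of these data known. They make up 10 of the 56262 genes in the deposited table. All 10 passed the filter on low counts, which left 17120 genes for testing.

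RNA was taken from lungs of untreated 8-week-old mice and read as pairs of 150-base reads. R/R mice carried the homozygous knock-in RBM47 K329R;K332R, in which lysines of the RNA-binding protein RBM47 to which the ubiquitin-like modifier ISG15 is attached were replaced by arginines. The line was made with CRISPR/Cas in C57BL/6 mice, and the WT mice were littermates. Each genotype had 3 lungs, and the knock-in was present in every cell type, so that an endothelial difference cannot be told apart from one secondary to other cells. Whether the lungs were perfused is not given in the sources used here.

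Arterial identity is set up by Notch signalling. The ligand DLL4 on one endothelial cell engages NOTCH1 or NOTCH4 on its neighbour, the cleaved receptor joins the DNA-binding protein RBPJ, and Hey and Hes repressors are transcribed. SOXF factors act upstream and beside this pathway, ephrin-B2 on arterial cells faces its receptor EPHB4 on venous cells, and connexins 37 and 40 couple arterial cells electrically. In veins the orphan nuclear receptor COUP-TFII, encoded by Nr2f2, holds the Notch programme down. In whole lung none of these genes is confined to large vessels, since capillary, lymphatic, mural and stromal cells express several of them.

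Of the 10 genes only Dll4 and Gja4 passed the test between genotypes (an adjusted p under 0.05 in edgeR), in opposite directions, and their promoters are shown so that the sequence before each start site can be read beside the values. Each run is the 250 bases before the RefSeq start site of the gene in assembly GRCm38.p6, written 5′ to 3′ on the strand of the gene. Dll4 lies on the plus strand (chr2:119325534-119325783) and Gja4 on the minus strand (chr4:127314040-127314289). Capitals mark matches, on either strand, to GGGCGG (a GC box), ACAAT (the core bound by SOX factors), TGGGAA (the core bound by RBPJ) or CACGTG (an E-box).
Dll4: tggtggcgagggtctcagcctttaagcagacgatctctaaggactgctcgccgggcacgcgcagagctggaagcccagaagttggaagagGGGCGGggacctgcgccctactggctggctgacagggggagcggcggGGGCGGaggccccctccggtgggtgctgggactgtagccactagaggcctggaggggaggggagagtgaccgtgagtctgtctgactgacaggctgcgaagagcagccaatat
Gja4: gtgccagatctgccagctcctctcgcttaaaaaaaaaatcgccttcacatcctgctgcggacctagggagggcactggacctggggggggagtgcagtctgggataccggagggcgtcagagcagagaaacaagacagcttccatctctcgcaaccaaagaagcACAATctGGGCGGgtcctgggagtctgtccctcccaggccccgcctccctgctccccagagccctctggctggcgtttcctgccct
The Dll4 run held 2 GC boxes, starting 160 and 113 bases before the start site. The Gja4 run held 1 SOX core 86 bases and 1 GC box 79 bases before it. Neither held TGGGAA or CACGTG, and the marked matches did not overlap. Among all 32851 RefSeq windows of 300 bases (250 before the start and 50 after), 35.7% held GGGCGG, 31% ACAAT, 25.6% TGGGAA and 7.15% CACGTG. Windows were found for 7 of the 10 genes, Sox17, Hey1 and Vwf being the others. Among the remaining 5, Efnb2 held 3 GC boxes, Ephb4 4 and Gja5 1, Bmx held 1 RBPJ core and 3 SOX cores, and Nr2f2 held no match. A match is a description of the letters, not evidence that a factor binds there.

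Library totals were 16815020 to 18071818 read pairs in R/R lungs and 16501092 to 18141067 in WT lungs, so that 1 read pair corresponded to 0.0552 to 0.0607 counts-per-million units (CPM, scaled by TMM library sizes). Correlations of log2 CPM across genes ran from 0.986 to 0.990 within a genotype and from 0.983 to 0.986 between genotypes. Lung identity was plain, with Sftpc, which encodes surfactant protein C, at 13238 ± 717 CPM in R/R and 11115 ± 1076 in WT lungs (SD, n = 3 each). Cdh5, which encodes the endothelial adhesion protein VE-cadherin, stood at 1433 ± 39.0 and 1599 ± 108 CPM. Rbm47 mRNA was read in every lung, with a log2 difference of 0.10 ± 0.08 (SE) and an adjusted p of 0.660 in edgeR. A coding substitution need not alter the mRNA level, so this value does not check the genotype.

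Of the 10 genes, 2 passed an adjusted p of 0.05 in edgeR's quasi-likelihood test (20%), against 300 of all 17120 tested genes, or 1.75%. Dll4 was among the 0.648% of genes called higher in R/R lungs and Gja4 among the 1.1% called lower. The R/R and WT lungs did not overlap for 8 of the 10 genes, against 18.7% of all tested genes. For Dll4, Hey1, Efnb2 and Bmx every R/R lung lay above every WT lung, as for 9.17% of all genes. For Sox17, Gja4, Nr2f2 and Ephb4 every R/R lung lay below, as for 9.5%. An unadjusted p under 0.05 was reached by 8 of the 10 genes and by 14.2% of all genes. The 10 genes were chosen with earlier results of these data known. Their shares beside those of all genes are therefore descriptive and do not test for an excess. Over all tested genes, 8769 had a higher and 8351 a lower R/R value, and the median log2 difference was 0.0045. For the 7 arterial genes the median was 0.16, with 5 higher and 2 lower. Among the 3 venous genes it was -0.14, with 1 higher and 2 lower. Fewer cells of a type and less RNA per cell cannot be told apart in bulk tissue.

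**Figure D1:**
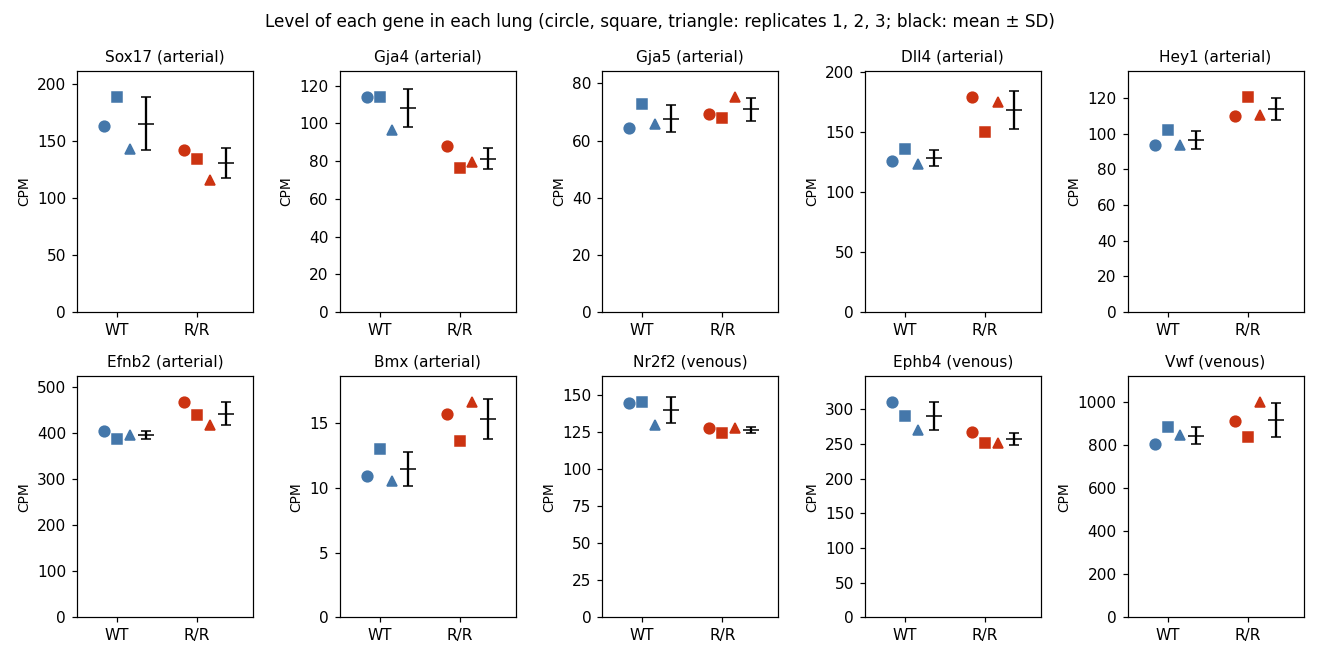
CPM (linear axis from 0) of each of the 10 genes in each lung, WT in blue and R/R in red, with circle, square and triangle for replicates 1, 2 and 3 and the mean ± SD in black. The R/R and WT lungs do not overlap for 8 genes, while those of Gja5 and Vwf do.

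The Notch ligand Dll4 rose in R/R lungs. It stood at 179.5, 150.4 and 175 CPM in R/R lungs 1, 2 and 3 and at 126, 136 and 124 CPM in WT lungs 1, 2 and 3. The lowest R/R lung was above the highest WT lung. The means were 168 ± 15.8 and 129 ± 6.42 CPM (SD, n = 3 each), a log2 difference of 0.39 ± 0.07 (SE) with a 95% interval from 0.23 to 0.55 and an edgeR adjusted p of 0.0297. Dll4 (ENSMUSG00000027314.6) spans chr2:119325784-119335962 on the plus strand, and 214 of its 3852 exon bases are shared with the antisense transcript Gm14207. Reads were counted without regard to strand and pairs assigned to both genes were dropped, so the values of such pairs of genes are uncertain. Gm14207 held only 76 to 156 read pairs a lung, with a log2 difference of 0.42 and an adjusted p of 0.400 in edgeR.

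None of the other Notch ligand genes passed the test. Jag2 read 55.9, 66.7 and 77.0 CPM in R/R and 100.2, 93.3 and 75.5 CPM in WT lungs. R/R lung 3 overlapped the WT range, and the log2 difference of -0.43 had an adjusted p of 0.106 in edgeR. Jag1 had a log2 difference of 0.18 (edgeR adjusted p = 0.420) and Dll1 one of -0.06 (0.874). Among the 4 receptors none passed. Notch3, the receptor of smooth muscle and pericytes, read 286 ± 16.5 CPM in R/R and 346 ± 14.5 CPM in WT lungs with no overlap (log2 difference -0.27, edgeR adjusted p = 0.0558). The endothelial receptor Notch4 read 258 ± 16.6 and 307 ± 38.9 CPM (-0.25, adjusted p = 0.202 in edgeR). Its lungs were barely separate, at 269.7 CPM in R/R lung 3 and 270.2 CPM in WT lung 3. Notch1, the main receptor for DLL4, had a log2 difference of 0.11 (adjusted p = 0.479 in edgeR) and Notch2 one of -0.11 (0.432).

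Of 12 genes that carry or modify the Notch signal, 1 fell and none rose, with a median log2 difference of -0.04. The one that fell, Adam17, encodes a sheddase that can cleave Notch. It read 90.2, 94.3 and 93.7 CPM in R/R and 106.7, 110.1 and 113 CPM in WT lungs. The groups did not overlap, but the log2 difference of -0.25 ± 0.06 (SE) lay at the edge of the threshold (edgeR adjusted p = 0.04999). The call was lost without any one of the 6 lungs (adjusted p from 0.0774 to 0.165) and in 5 of 7 other settings. Psen2, a catalytic subunit of the γ-secretase that releases the Notch intracellular domain, read 44.0 ± 6.38 and 33.6 ± 3.12 CPM (0.39, edgeR adjusted p = 0.105). Maml1, a coactivator of the complex, had a log2 difference of -0.10 (adjusted p = 0.497 in edgeR).

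Hey1 is a direct Notch target that encodes a transcriptional repressor of arterial endothelium. Its R/R lungs read 109.8, 121 and 111 CPM and its WT lungs 93.5, 102 and 93.8 CPM. All R/R values exceeded all WT values. The log2 difference was 0.24 ± 0.06 (SE), with a 95% interval from 0.10 to 0.38 and an edgeR adjusted p of 0.0946, which missed the threshold. Hey1 (ENSMUSG00000040289.8) lies on the minus strand at chr3:8663359-8667256, with 3265 exon bases and no overlapping gene. None of the 5 Notch target genes passed, and their median log2 difference was -0.30. Heyl, expressed in vascular smooth muscle, read 68.8 ± 4.92 CPM in R/R and 85.3 ± 6.08 CPM in WT lungs (-0.31, edgeR adjusted p = 0.0620). Hes1 read 63.8 ± 3.28 and 78.7 ± 14.5 CPM (-0.30, adjusted p = 0.219 in edgeR), Hey2 4.86 ± 0.338 and 6.00 ± 0.430 CPM (-0.30, 0.431), and Nrarp, a feedback inhibitor, 22.8 ± 3.81 and 19.8 ± 1.26 CPM (0.20, 0.499).

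The connexin gene Gja4 fell in R/R lungs. It encodes connexin 37, a gap junction protein of arterial endothelium. Its values were 87.8, 76.6 and 79.6 CPM in the R/R lungs and 114, 114 and 96.5 CPM in the WT lungs. The highest R/R lung stayed below the lowest WT lung, which was WT lung 3. The means of 81.3 ± 5.80 and 108 ± 10.1 CPM (SD, n = 3 each) differed by -0.41 ± 0.08 on the log2 scale (SE), with a 95% interval from -0.58 to -0.24 and an edgeR adjusted p of 0.0302. Gja4 (ENSMUSG00000050234.7) lies on the minus strand at chr4:127311421-127314039, has 1685 exon bases and shares none with another gene.

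Gja5, which encodes the other arterial connexin, connexin 40, showed no such difference. It read 69.2, 68.0 and 75.3 CPM in R/R and 64.3, 72.9 and 65.9 CPM in WT lungs. The groups overlapped, and the log2 difference of 0.07 had a 95% interval from -0.09 to 0.22 (edgeR adjusted p = 0.744, exact permutation p = 0.4). That interval and the interval of Gja4 do not meet. Gja5 (ENSMUSG00000057123.14) spans chr3:96904693-97077416 on the plus strand and shares 165 of its 5746 exon bases with Gpr89 on the other strand. Per kilobase of exon, Gja4 was 4.33, 3.84 and 3.60 times as abundant as Gja5 in the R/R lungs and 6.06, 5.33 and 4.99 times in the WT lungs. This ratio was lower in every R/R lung, and was given after the values were seen. Gjc1, which encodes connexin 45 of vascular smooth muscle, read 31.8 ± 1.28 and 38.7 ± 2.50 CPM without overlap (-0.29, edgeR adjusted p = 0.0948), whereas Gja1 averaged 90.1 CPM in both genotypes.

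Sox17 encodes a SOXF transcription factor needed for arterial fate. It stood at 142, 134 and 116 CPM in R/R and 163, 189 and 143 CPM in WT lungs. No R/R lung reached the lowest WT lung, although R/R lung 1 came within 1 CPM of WT lung 3. The log2 difference was -0.33 ± 0.10 (SE), with a 95% interval from -0.55 to -0.12 and an edgeR adjusted p of 0.137. DESeq2 called the gene (adjusted p = 0.0319), and edgeR called it without WT lung 3 (0.0213). Sox17 (ENSMUSG00000025902.13) lies on the minus strand at chr1:4490931-4497354, and 804 of its 4772 exon bases are shared with the antisense transcript Gm37587, which held 6 to 15 read pairs a lung.

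Both other SOXF genes had lower means in R/R lungs. Sox7, which acts redundantly with Sox17 in vessels, fell: it read 120.8, 103 and 109 CPM in R/R and 163, 145 and 135 CPM in WT lungs. These groups did not overlap, and the log2 difference was -0.41 ± 0.08 (SE) with an edgeR adjusted p of 0.0319. Without R/R lung 2 or 3 or WT lung 1 or 2 the adjusted p of Sox7 was 0.130, 0.0925, 0.119 and 0.0775. Sox18 read 209 ± 22.5 and 240 ± 25.1 CPM with overlapping lungs (-0.20, edgeR adjusted p = 0.345). The summed CPM of the 3 SOXF genes ran from 425 to 495 in R/R lungs and from 504 to 595 in WT lungs.

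Efnb2 encodes ephrin-B2, the membrane ligand that marks arterial endothelium. R/R lungs read 468, 439 and 418 CPM and WT lungs 405, 386 and 396 CPM. The lungs did not overlap, with R/R lung 3 nearest to the WT range. The log2 difference of 0.16 ± 0.06 (SE) had a 95% interval from 0.02 to 0.29 and an edgeR adjusted p of 0.265. Efnb2 (ENSMUSG00000001300.16) spans chr8:8617434-8661242 on the minus strand, with 6855 exon bases that no other gene shares. Efnb1, expressed in mural and stromal cells, read 176 ± 12.8 CPM in R/R and 215 ± 24.4 CPM in WT lungs, also without overlap (-0.29, edgeR adjusted p = 0.122). Efnb3 was scarce, at 1.34 ± 0.423 and 1.44 ± 0.130 CPM.

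Ephb4, the venous receptor of ephrin-B2, differed the other way from its ligand. It read 267, 252 and 251 CPM in R/R and 311, 289.6 and 270.0 CPM in WT lungs. No R/R lung reached the lowest WT lung. The log2 difference was -0.18 ± 0.06 (SE), with a 95% interval from -0.32 to -0.04 and an edgeR adjusted p of 0.228. Ephb4 (ENSMUSG00000029710.15) lies on the plus strand at chr5:137350109-137378669 and shares 33 of 4640 exon bases with Zan. None of the other 4 EphB receptor genes passed. Ephb6 had a log2 difference of 0.19 (edgeR adjusted p = 0.431) and Ephb3 one of -0.05 (0.787). Ephb1 and Ephb2 stayed under 3 CPM on average. On 14 to 34 read pairs a lung, Ephb1 had a log2 difference of 0.73 with overlapping lungs (edgeR adjusted p = 0.354). Ephb2 had one of -0.21 (0.864).

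Scaled by exon length, ligand and receptor were ordered differently in the genotypes. Per kilobase of exon, Efnb2 was 1.19, 1.18 and 1.13 times as abundant as Ephb4 in R/R lungs 1, 2 and 3. In WT lungs the ratio was 0.882, 0.903 and 0.993. It lay above 1 in every R/R lung and below 1 in every WT lung, but it combines genes that did not pass singly, it was chosen after their values were seen, and it was not tested. The side of 1 also depends on the annotated exon lengths (6855 and 4640 bases). In CPM without that scaling, Efnb2 (386 to 468) exceeded Ephb4 (251 to 311) in the lungs of both genotypes. That the ratio was higher in every R/R lung than in every WT lung does not depend on the lengths. It had to be so, since every R/R lung lay above the WT lungs for Efnb2 and below them for Ephb4. The separation of the ratio therefore adds nothing to those of the single genes.

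Nr2f2 encodes COUP-TFII, which maintains venous identity and is also made by lymphatic endothelium and fibroblasts. It read 127, 124 and 128 CPM in R/R and 145, 145 and 129 CPM in WT lungs. The groups were separate by less than 2 CPM at WT lung 3. The log2 difference of -0.14 ± 0.06 (SE) had a 95% interval from -0.28 to -0.01 and an edgeR adjusted p of 0.308. Nr2f2 (ENSMUSG00000030551.14) spans chr7:70351944-70366735 on the minus strand, and 643 of its 8625 exon bases are shared with the antisense transcript B130024G19Rik, whose log2 difference was -0.05 (adjusted p = 0.911 in edgeR).

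Its relative Nr2f1, which encodes COUP-TFI, fell. It was far less abundant, at 13.7, 16.6 and 12.3 CPM in R/R and 23.3, 21.2 and 19.3 CPM in WT lungs. The lungs did not overlap, and the log2 difference was -0.59 ± 0.12 (SE) with an edgeR adjusted p of 0.0381. Without R/R lung 1 or 3 or WT lung 1 or 2 the adjusted p of Nr2f1 was 0.09996, 0.106, 0.164 and 0.112. Nr2f6 read 53.1 ± 2.19 and 53.8 ± 0.896 CPM (-0.02, edgeR adjusted p = 0.937).

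Vwf encodes von Willebrand factor, the adhesive glycoprotein that endothelial cells of larger vessels store in Weibel-Palade bodies and that megakaryocytes also make. R/R lungs read 911, 839.8 and 1001 CPM and WT lungs 804, 883 and 846 CPM. R/R lung 2 fell inside the WT range, so the groups overlapped. The log2 difference was 0.12 ± 0.08 (SE), with a 95% interval from -0.05 to 0.29 (edgeR adjusted p = 0.533, exact permutation p = 0.3). Vwf (ENSMUSG00000001930.17) spans chr6:125546774-125686679 on the plus strand, with 16064 exon bases. Summed platelet markers ran from 38.1 to 59.1 CPM in R/R and from 42.9 to 52.2 CPM in WT lungs. Among them Pf4 had a log2 difference of 0.24 and Itga2b one of -0.47 (edgeR adjusted p = 0.518 and 0.341), while Gp1bb had no read pair in any lung.

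None of the 9 tested genes of VWF storage, binding and cleavage passed, and their median log2 difference was 0.12. Cd63, a membrane protein of the storage granule, read 123 ± 1.52 CPM in R/R and 99.4 ± 12.7 CPM in WT lungs without overlap (0.30, edgeR adjusted p = 0.0909). Selp, which encodes the granule's P-selectin, read 3.84 ± 1.23 and 2.24 ± 0.666 CPM (0.77, adjusted p = 0.239 in edgeR), on 28 to 89 read pairs a lung. Its lungs were barely separate, at 2.989 CPM in R/R lung 2 (50 read pairs) and 2.986 CPM in WT lung 3 (51 read pairs).

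Bmx encodes a TEC family tyrosine kinase of arterial and endocardial endothelium. It was the least abundant of the 10 genes, at 15.7, 13.6 and 16.6 CPM in R/R and 10.9, 13.0 and 10.54 CPM in WT lungs. R/R lung 2 exceeded WT lung 2 by less than 1 CPM, and the other lungs lay further apart. These values rest on 228 to 283 read pairs in R/R and 179 to 235 in WT lungs. The log2 difference of 0.42 ± 0.12 (SE), with a 95% interval from 0.15 to 0.69, had an edgeR adjusted p of 0.133. Bmx (ENSMUSG00000031377.11) is on the minus strand at chrX:164192842-164258193, with 3092 exon bases. Btk, a TEC kinase gene of blood cells, had a log2 difference of -0.10 (edgeR adjusted p = 0.740).

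**Figure D2:**
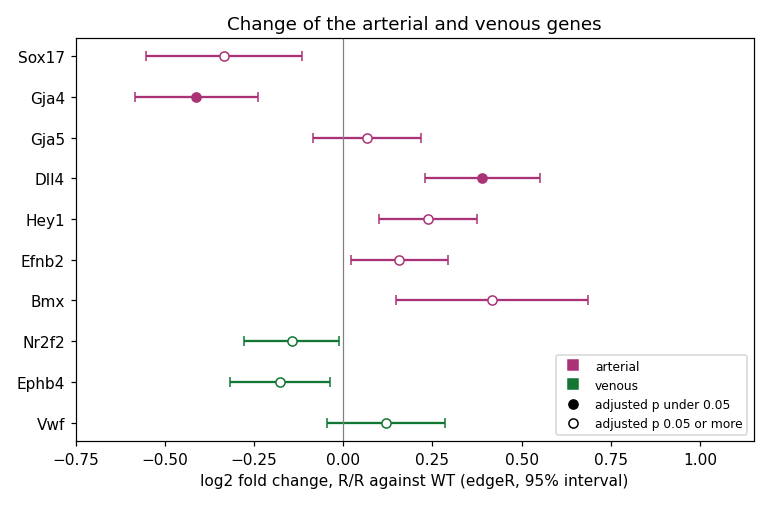
Log2 fold change of each gene, R/R against WT (edgeR, 3 lungs each), with its 95% interval, arterial genes in purple and venous genes in green, and filled points for an adjusted p under 0.05. Dll4 at 0.39 and Gja4 at -0.41 are the filled points, and the intervals of Gja5 and Vwf include 0.

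The arterial genes thus lay on both sides of zero. Dll4, Hey1, Efnb2 and Bmx had values between 0.16 and 0.42, Sox17 and Gja4 values of -0.33 and -0.41, and Gja5 one of 0.07. Summed over the 7 arterial genes, R/R lungs read 992 to 1072 CPM and WT lungs 929 to 1013 CPM. The 3 venous genes summed to 1216 to 1380 CPM in R/R and 1245 to 1318 CPM in WT lungs. Both sums overlapped between the genotypes, the second being mostly Vwf.

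Per kilobase of exon, the order of levels differed between the genotypes. WT lungs were led by Gja4 (64.2 ± 6.00 CPM per kb), Ephb4 (62.5 ± 4.38) and Efnb2 (57.7 ± 1.34), whose neighbours overlapped in that order. Vwf (52.6 ± 2.46) came next, then Sox17 (34.6 ± 4.85) and Dll4 (33.4 ± 1.67), which overlapped each other. Hey1 (29.5 ± 1.499) did not overlap Dll4, but its highest lung (31.3) lay above the lowest lung of Sox17 (29.9). Nr2f2 (16.2 ± 1.04), Gja5 (11.8 ± 0.793) and Bmx (3.71 ± 0.426) followed without overlap. R/R lungs were led by Efnb2 (64.4 ± 3.64 CPM per kb), Vwf (57.1 ± 5.03) and Ephb4 (55.3 ± 1.88), overlapping in that order. Gja4 (48.3 ± 3.44) and Dll4 (43.7 ± 4.10) overlapped, and Hey1 (34.8 ± 1.88) stood above Sox17 (27.4 ± 2.80). Nr2f2 (14.7 ± 0.242), Gja5 (12.3 ± 0.686) and Bmx (4.95 ± 0.494) kept their places. By this measure, which depends on the annotated exon lengths, Gja4 had the highest mean in WT lungs but lay under Efnb2, Vwf and Ephb4 in R/R lungs. In WT lung 3, however, Gja4 (57.3) was below Ephb4 (58.2) and Efnb2 (57.8). Sox17 lay below Hey1 in every R/R lung, whereas the ranges of the 2 genes overlapped in WT lungs.

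**Figure D3:**
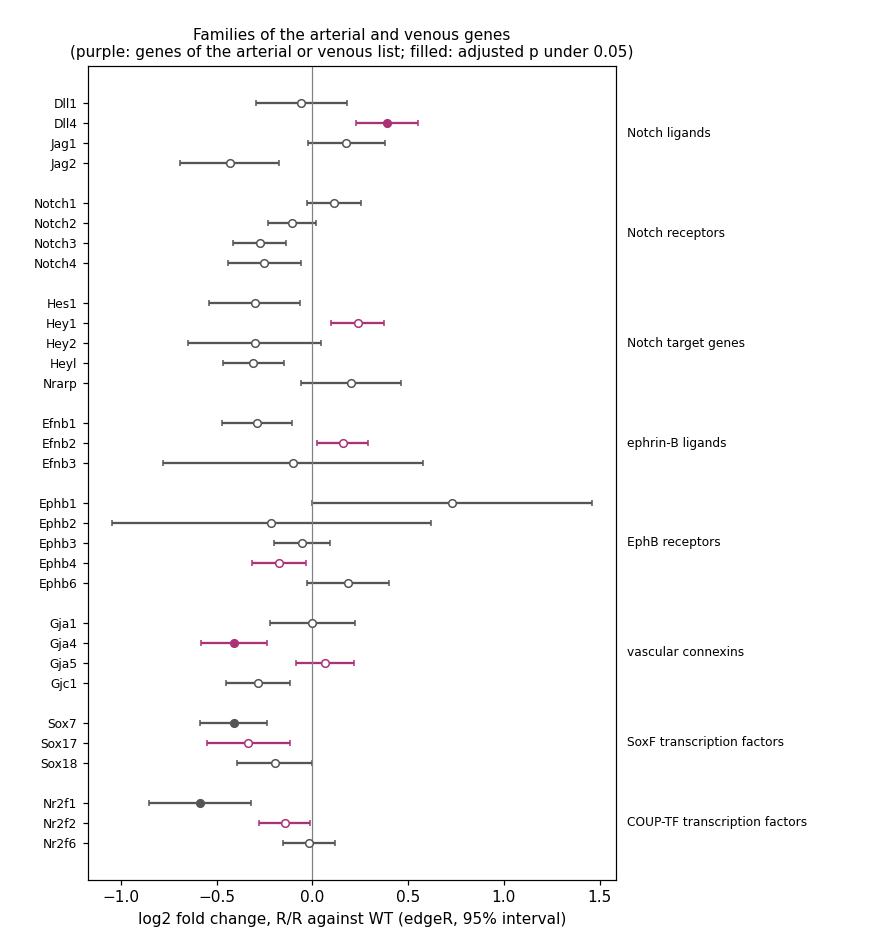
Log2 fold change (R/R against WT, edgeR) with 95% interval for the tested genes of 8 families, the arterial and venous genes in purple and their relatives in grey, filled where the adjusted p is under 0.05. Dll4 alone is filled to the right of 0, while Gja4, Sox7 and Nr2f1 are filled to the left.

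Other markers of arteries and veins were read beside these genes. Of 20 further arterial endothelial markers, 6 were higher and 14 lower, 1 fell and none rose, with a median log2 difference of -0.04. Cxcl12, a chemokine of arterial endothelium and stroma, fell to 319, 402 and 333 CPM in R/R lungs from 659.7, 613 and 488 CPM in WT lungs. The lungs did not overlap, and the log2 difference was -0.74 ± 0.11 (SE) with an edgeR adjusted p of 0.0104. Unc5b, a netrin receptor, had a log2 difference of -0.32 (edgeR adjusted p = 0.0956), Depp1 one of -0.37 (0.139) and Mgp, a calcification inhibitor also made by smooth muscle, one of 0.29 (0.146). Of 13 tested venous markers, 10 were higher and 3 lower and none passed, with a median of 0.07. Ackr1 and Moxd1, the remaining venous markers, held 1 to 4 and 2 to 9 read pairs a lung and were not tested.

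Markers of other cell types also differed between the lungs. Summed over 18 pan-endothelial markers, R/R lungs read 10071 to 10735 CPM and WT lungs 10078 to 11474 CPM, with 7 markers higher, 11 lower and none past the test. Those of smooth muscle and pericytes summed to 1172 to 1287 CPM in R/R and 1418 to 1531 CPM in WT lungs, which did not overlap. Of these 12 genes 11 were lower, and Pdgfrb, the pericyte receptor, fell (log2 difference -0.37 ± 0.07 SE, edgeR adjusted p = 0.0268), a call kept only when WT lung 3 was the lung left out (others 0.0634 to 0.112). Fibroblast markers summed to 5685 to 6587 against 6697 to 7134 CPM, with none of 11 called. B and T cell markers were lower in 10 of 10 genes, at 78.8 to 107.7 against 148 to 177 CPM, and 3 of them fell. Red cell markers were lower in 7 of 7, at 1179 to 2229.7 against 2433 to 3233 CPM, and 1 of them fell. Alveolar epithelial markers were higher in 9 of 10, at 24712 to 26242 against 20123 to 24144 CPM, and 1 of them rose. When single lungs were omitted, the B cell gene Cd79a and the red cell gene Hba-a1 were each called in 2 of 6 fits and the alveolar gene Aqp5 in 1. With all lungs, Cd79a missed the threshold with limma-voom (adjusted p = 0.0511) and with a filter of 1 CPM (0.0535 in edgeR), and Hba-a1 with DESeq2 (0.0869), without TMM (0.0508) and with that filter (0.0534). Cardiac muscle markers of the pulmonary veins were lower in 9 of 9, with none called, at 70.2 to 136 against 96.0 to 285 CPM, and Nppa held at most 1 read pair. The part of these cell types in the values of the arterial and venous genes was not tested.

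Genes that follow time of day and handling differed too. All 11 immediate early genes were higher, with sums of 1097 to 1192 CPM in R/R against 755 to 920.1 CPM in WT lungs and 1 call, that of Nr4a1, which was lost without WT lung 1 (edgeR adjusted p = 0.0669). Of 14 circadian clock genes 5 rose and 2 fell. When single lungs were omitted, Dbp, Tef, Nr1d2 and Npas2 were called in 6 of 6 fits, Per3 in 3, Arntl in 2 and Cry2 in 1, and Arntl, Per3 and Cry2 all lost their calls without R/R lung 2 (edgeR adjusted p = 0.179, 0.0745 and 0.125), R/R lung 3 (0.144, 0.0627 and 0.0780) or WT lung 1 (0.155, 0.0960 and 0.101). Their part in the endothelial values was not tested either, and the hour of sampling is not given in the sources used here.

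Set against the summed pan-endothelial markers of the same lung, a scaling added after the values were seen, the 10 genes kept their signs. Dll4 was 16.7, 14.3 and 17.4 per 1000 endothelial CPM in R/R and 10.98, 12.2 and 12.3 in WT lungs. Gja4 was 8.18, 7.30 and 7.91 in R/R and 9.95, 10.2 and 9.58 in WT lungs. Neither pair of groups overlapped, with log2 differences of 0.45 and -0.35 and an exact permutation p of 0.1 each, the smallest that 3 against 3 allows. Sox17 (-0.27), Hey1 (0.30), Efnb2 (0.22), Bmx (0.48) and Ephb4 (-0.11) also kept groups that did not overlap. Nr2f2 (-0.08) now overlapped, as Gja5 (0.13) and Vwf (0.18) did on the CPM scale.

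With 3 lungs a genotype, the calls were often lost when a single lung was left out. Whether this came from the lung itself or from the smaller number of lungs was not tested. Dll4 lost its call without R/R lung 1 (edgeR adjusted p = 0.0801), R/R lung 3 (0.0869), WT lung 1 (0.117) or WT lung 2 (0.0512) and kept it without R/R lung 2 or WT lung 3. Gja4 lost it without R/R lung 2 (adjusted p = 0.126 in edgeR), R/R lung 3 (0.0887), WT lung 1 (0.119) or WT lung 2 (0.106) and kept it without R/R lung 1 or WT lung 3. The size of both differences moved little, from 0.34 to 0.47 for Dll4 and from -0.49 to -0.37 for Gja4. No sign turned for any of the 10 genes in these fits. For the 8 genes whose lungs did not overlap this was fixed beforehand, since leaving out a lung keeps the groups apart. Only Gja5 and Vwf (0.05 to 0.18) could have turned. Bmx ranged from 0.36 to 0.52, Hey1 from 0.19 to 0.28 and Sox17 from -0.43 to -0.23, while Gja5 ranged from 0.02 to 0.12.

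**Figure D4:**
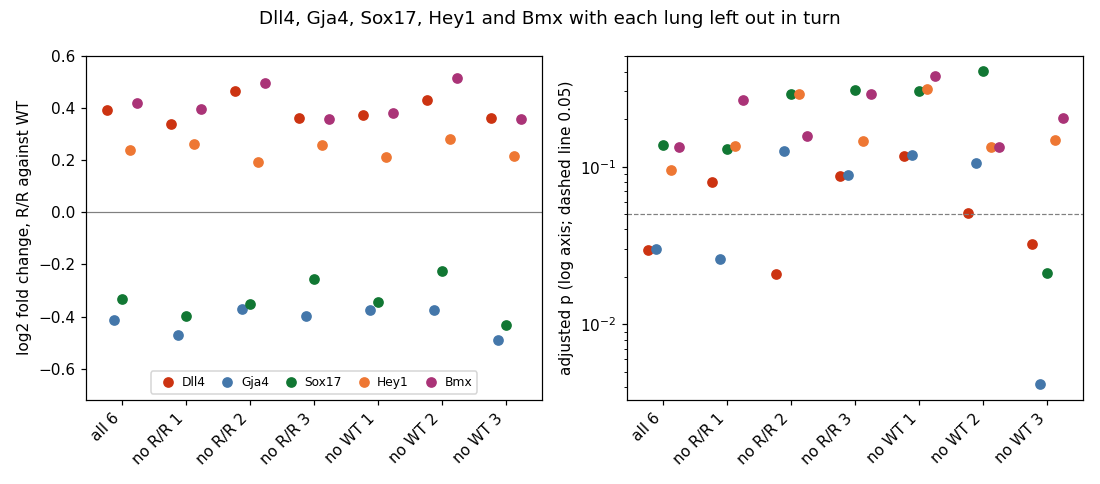
Log2 fold change (left) and edgeR adjusted p (right, log axis, dashed line at 0.05) of Dll4, Gja4, Sox17, Hey1 and Bmx with all 6 lungs and with each lung left out in turn. Points of each gene stay on their side of 0, which was fixed beforehand because the R/R and WT lungs of these genes do not overlap. Dll4 and Gja4 are each under the line in 2 of the 6 fits with 5 lungs.

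The 5 genes whose lung-to-lung profile was most like the mean of the arterial genes were Abcf2, Cd99l2, Brf1, N6amt1 and Scd2. Likeness was the root mean square difference of log2 CPM deviations over the 6 lungs, which ran from 0.0143 to 0.0231. For the venous mean they were Coro7, Cdc42bpb, Cop1, Cdk16 and Dctn5, at 0.0126 to 0.0201. The mean profiles were nearly flat, between -0.12 and 0.09 in log2 for the arterial and between -0.09 and 0.07 for the venous genes, with members on opposite sides averaged together.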

How the data were processed

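Lungs of 3 R/R and of 3 WT mice were sequenced as pairs of 150-base reads. Per the file header, the labels and the study's supplement, the authors used HISAT2 2.1.0 for alignment to GRCm38 (mm10). The deposited values are unnormalized counts, the number of read pairs on the GENCODE M25 exons of each gene by featureCounts 2.0.1, without strand and without pairs that map to several places. The supplement differs from the labels in the RNA extraction kit and from the file header in the featureCounts version. It also describes a stranded library, so that counting without strand mixes reads of genes that overlap on opposite strands. The submitters' processing notes also name DESeq2. Nothing says that the lungs of a genotype were pooled, and the supplement calls them biological replicates.

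Identifiers were matched to symbols with GENCODE M21, which named 55141 of 56262 genes. Low counts were removed with filterByExpr (at least 10 in enough libraries, at least 15 in total) and the rest tested in R 4.3.3 with edgeR 4.0.16 (TMM, glmQLFit, glmQLFTest). Calls needed a p under 0.05 after Benjamini-Hochberg adjustment over 17120 genes. CPM used TMM library sizes and log2 CPM a prior count of 0.5. SE was the log2 fold change over the square root of F, and intervals are at 95%. Exact permutation tests were two-sided and cannot go below 0.1.

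The 10 genes and all lists were chosen with earlier results of these data known. Named were all 10 genes, called genes of the pathway and marker lists and up to 3 further genes a list by unadjusted p. Same-numbered R/R and WT lungs did not deviate together (correlations -0.0139, -0.0036 and -0.0148), so no pairing was used. On simulated data, 83% of genes changed by 1 and 96% of those changed by 2 on the log2 scale were recovered, and 8.67% of calls were false. Smaller changes were not simulated, so recovery at the sizes seen for the 10 genes (at most 0.42) is not known. Counting error alone allows 3 counts, or 0.166 to 0.182 CPM, where none is read. Alternatives were DESeq2 1.42.0, limma-voom (limma 3.58.1), other scalings and filters, the replicate number as a block, and each lung left out.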

Additional observations from a re-analysis of the deposited data

How the results depend on the processing

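Over all tested genes, 300 were called, against 541 with DESeq2 and 1109 with no filter beyond 1 count in total (the cause was not tested), 251 with limma-voom, 293 and 295 with library size or upper-quartile factors and 271 with a filter of 1 CPM. Leaving out 1 lung gave 65 (without WT lung 1) to 621 (without WT lung 3) calls. Of the 10 arterial and venous genes, 2 were called with all lungs, 5 with no filter (Sox17, Hey1 and Bmx added) and 0 to 3 with 1 lung left out, 0 being reached without R/R lung 3, WT lung 1 or WT lung 2 and 3 without WT lung 3. With the replicate number as a block, 446 genes and 3 of the 10 (Sox17 added, adjusted p = 0.0301 in edgeR) were called, but the numbers do not pair these lungs. Dll4 and Gja4 were called in all 7 other settings with 6 lungs, and none of the 10 genes changed sign in these settings. For the 8 genes whose lungs did not overlap the sign was little at risk, since all these settings use the same lungs. Scaling moved the median log2 difference of all genes by less than 0.01. Bmx, with the fewest counts, had the widest interval of the 10.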

Other observations

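Pathways that act beside the arterial and venous programme held no called gene. Of 14 genes for VEGF, neuropilin and Tie receptors and their ligands, 7 were higher and 7 lower, with a median log2 difference of -0.01. Nrp2, a coreceptor of veins and lymphatics, had the smallest p among them, with a log2 difference of 0.15 and an edgeR adjusted p of 0.357. Of 15 tested genes of the ALK1 and endoglin pathway, which patterns the junction of arteries and veins, 11 were higher and 4 lower. Gdf2, which encodes the ligand BMP9, averaged only 1.22 ± 0.450 CPM in R/R against 0.502 ± 0.140 CPM in WT (SD over 3 lungs each, no overlap, edgeR adjusted p = 0.160). Bmp6 read 367 ± 17.8 and 328 ± 9.25 CPM, also with no overlap (log2 difference 0.16, edgeR adjusted p = 0.239), and the ligand gene Bmp10 held no read pair.

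Of 5 shear-responsive genes none passed. Edn1, the endothelin-1 gene, had a log2 difference of -0.31, Nos3, the endothelial nitric oxide synthase gene, one of -0.25, and Klf2 one of 0.38 (edgeR adjusted p = 0.312, 0.376 and 0.510). Capillary markers held 1 call among 12. Apln, which encodes apelin, fell to 71.1, 75.4 and 70.2 CPM in R/R lungs from 106.6, 115 and 93.2 CPM in WT lungs (log2 difference -0.54 ± 0.08 SE, edgeR adjusted p = 0.00893, no overlap), and was called with any 1 lung left out. Cd93 (-0.35), Prx (-0.31) and Tbx2 (-0.25) did not overlap but missed the threshold (edgeR adjusted p = 0.0529, 0.0669 and 0.0840). Lymphatic markers summed to 596 to 677 CPM in R/R and 491 to 570.0 CPM in WT lungs, which did not overlap, with 6 of 7 higher and none called. Lyve1, the hyaluronan receptor gene, read 314 ± 34.2 and 240 ± 45.8 CPM with overlapping lungs (0.39, edgeR adjusted p = 0.156).

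Airway epithelial markers summed to 13887 to 17978 CPM in R/R and 11685 to 16773 CPM in WT lungs, and myeloid markers to 299.5 to 346 and 315 to 431 CPM. Neither list held a call among its 9 tested genes.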
